A study of Mus musculus with 5 samples.

Results

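MicroRNAs (miRNAs) were compared between C2C12 mouse myoblasts after 1 day of differentiation and proliferating C2C12 myoblasts. The comparison used the 4 arrays labelled as 1 day differentiated and the 4 labelled as proliferating, of 20 arrays in the series, and every probe with a mouse miRNA name, which were 343 of 1488 probes. Of these, 176 were detected and tested. C2C12 is a single clonal line of skeletal myoblasts whose cells form multinucleate myotubes in low serum, so the values describe 1 line in culture. Proliferating cells were harvested at 70 to 80% confluence. Day 1 cells were taken to confluence, given 2% horse serum and harvested 1 day later, so that confluence, lowered serum and time changed together. Neither group carried a transgene or a drug, and RNA of both was extracted with TRIzol. On every array 1 channel held a replicate and the other a reference pooled from 4 proliferating cultures. The labels call the 4 replicates of a stage biological.

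miRNAs are short RNAs that base-pair through their seed, near the 5′ end, with target mRNAs and lower their translation or stability. In skeletal muscle the miR-1, miR-133 and miR-206 families are switched on by the myogenic factors MyoD and myogenin and tune the exit from the cell cycle and the assembly of the contractile apparatus. The miR-17-92 cluster is induced by Myc and E2F factors and is known for its high level in dividing cells.

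The mature sequences below are those of miRNAs on which the results turn, with the seed, bases 2 to 8, in capitals. The first pair are muscle miRNAs read by the probes with the largest differences, and the next 3 belong to the miR-17-92 cluster. The probe of miR-133b is shared with miR-133a, so the difference cannot be given to miR-133b alone. The last 5 are miRNAs whose probes passed alone among tested members of their seed group, family or genomic cluster. All come from RefSeq on GRCm38.p6, from which a sequence was taken for 18 of the 26 probes that passed the test.
miR-206-3p: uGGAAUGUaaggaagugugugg
miR-133b-3p: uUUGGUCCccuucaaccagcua
miR-17-5p: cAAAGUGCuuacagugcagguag
miR-20a-5p: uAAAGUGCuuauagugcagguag
miR-18a-5p: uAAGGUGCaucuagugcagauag
miR-26a-5p: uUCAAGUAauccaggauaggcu
miR-30c-5p: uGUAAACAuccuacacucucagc
miR-130a-3p: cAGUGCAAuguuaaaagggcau
miR-503-5p: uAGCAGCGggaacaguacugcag
miR-489-3p: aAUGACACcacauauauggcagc
The miR-206-3p sequence lies at chr1:20679055-20679076 in Mir206 and that of miR-133b-3p at chr1:20682834-20682855 in Mir133b, both on the plus strand. miR-17-5p lies at chr14:115043684-115043706, miR-18a-5p at chr14:115043867-115043889 and miR-20a-5p at chr14:115044183-115044205, all on the plus strand and each in the miRNA gene of its name. miR-17-5p and miR-20a-5p share the seed AAAGUGC, while miR-18a-5p has the seed AAGGUGC.

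Over the 8 arrays the median spot intensity of a channel was 134.5 to 324, the highest 28379.5 to 65180, and 107 to 211 mouse probes were detected per channel. Values are log2 ratios of the day 1 channel to the pool channel, with each probe's dye effect taken out. Which channel held the day 1 RNA is not given for any array. The labels state that 2 replicates carried each dye, and the day 1 channel of an array was chosen as the one at the greater distance from the same dye on the proliferating arrays. This gave red on arrays 1 and 4 and green on arrays 2 and 3. Since 1 channel is always the farther one, this choice is no support for any value. The gap between the distances (1 minus Pearson's r) was 0.0078 on array 4 and between 0.0191 and 0.0207 in size on the other 3. Without the muscle-specific miRNAs array 4 alone would turn, with a gap of -0.0015. Once the mean of the proliferating arrays was taken out, arrays turned alike correlated at 0.507 to 0.692 and arrays turned oppositely at -0.621 to -0.456 across 176 probes, which share arrays and pool. Without the muscle-specific probes these ranges were 0.264 to 0.473 and -0.404 to -0.075 across 173 probes. The authors' deposited value for day 1, a log2 value whose normalisation and direction are not stated and whose median is 0.0043, correlated with the 4 arrays at 0.58, -0.77, -0.70 and 0.60, with the same signs as the channels chosen. It was made from these same arrays. Both sets of correlations bear on how the arrays are turned relative to each other, and neither sets the direction of all 4. That direction was inferred from the pool being proliferating RNA, so that the nearer channel was taken as the pool, and it is not given. With every day 1 array turned the other way, the 19 higher and 7 lower probes reported here would be 7 higher and 19 lower. With array 4 alone turned, which leaves 1 red and 3 green arrays against the 2 of each dye in the labels, 0 probes passed limma's test and 20 had an unadjusted p under 0.05. miR-206 then stood at 1.88 (adjusted p = 0.432), miR-133a/miR-133b at 1.42 (adjusted p = 0.455) and miR-422b at 0.56 (adjusted p = 0.541). No call of day 1 against the pool was thus kept with that array turned. With array 4 left out, 16 probes passed, 15 of them among those reported here. The later contrasts were not run with array 4 turned.

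The comparison asks which miRNAs differ from proliferating cells 1 day after induction. Among the miRNAs specific to muscle, miR-206 rose by 3.17 on the log2 scale (8.99-fold; SE 0.16, n = 4 arrays) and the shared probe of miR-133a and miR-133b by 2.45 (5.48-fold; SE 0.16), and miR-422b rose by 1.07 (2.10-fold; SE 0.13). The other 23 probes that passed differed by less than 2-fold. Among them miR-143, miR-22, miR-26a and miR-30c rose, and 3 probes of the miR-17-92 cluster fell. In all, 26 of 176 probes (14.8%) passed limma's test at a Benjamini-Hochberg adjusted p under 0.05, 19 higher and 7 lower, and 46 had an unadjusted p under 0.05. The median over all 176 was -0.0020 on the log2 scale. In 25 of the 26 all 4 day 1 arrays lay on the same side of 0, the exception being miR-207. The 26 were picked by a test on these same arrays, so this is no separate support. Probes that did not pass, such as miR-382 and miR-494, could also have all 4 arrays on the same side. As these are bulk samples, more RNA per cell and more cells that express a miRNA cannot be told apart.

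A stricter description asks whether all 4 day 1 values lay beyond the largest deviation of any proliferating array, taken in either sign because those arrays could not be turned. This held for 10 probes (5.68%), 8 higher and 2 lower. The 8, all of which passed the test, were miR-150, miR-500, miR-709, miR-30c, miR-143, miR-422b and the probes for miR-133a/miR-133b and miR-206. The 2 lower ones were miR-18, which passed, and miR-382 of the Dlk1-Dio3 cluster, at -0.30 (SE 0.10, adjusted p = 0.0525), which did not.

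**Figure D1:**
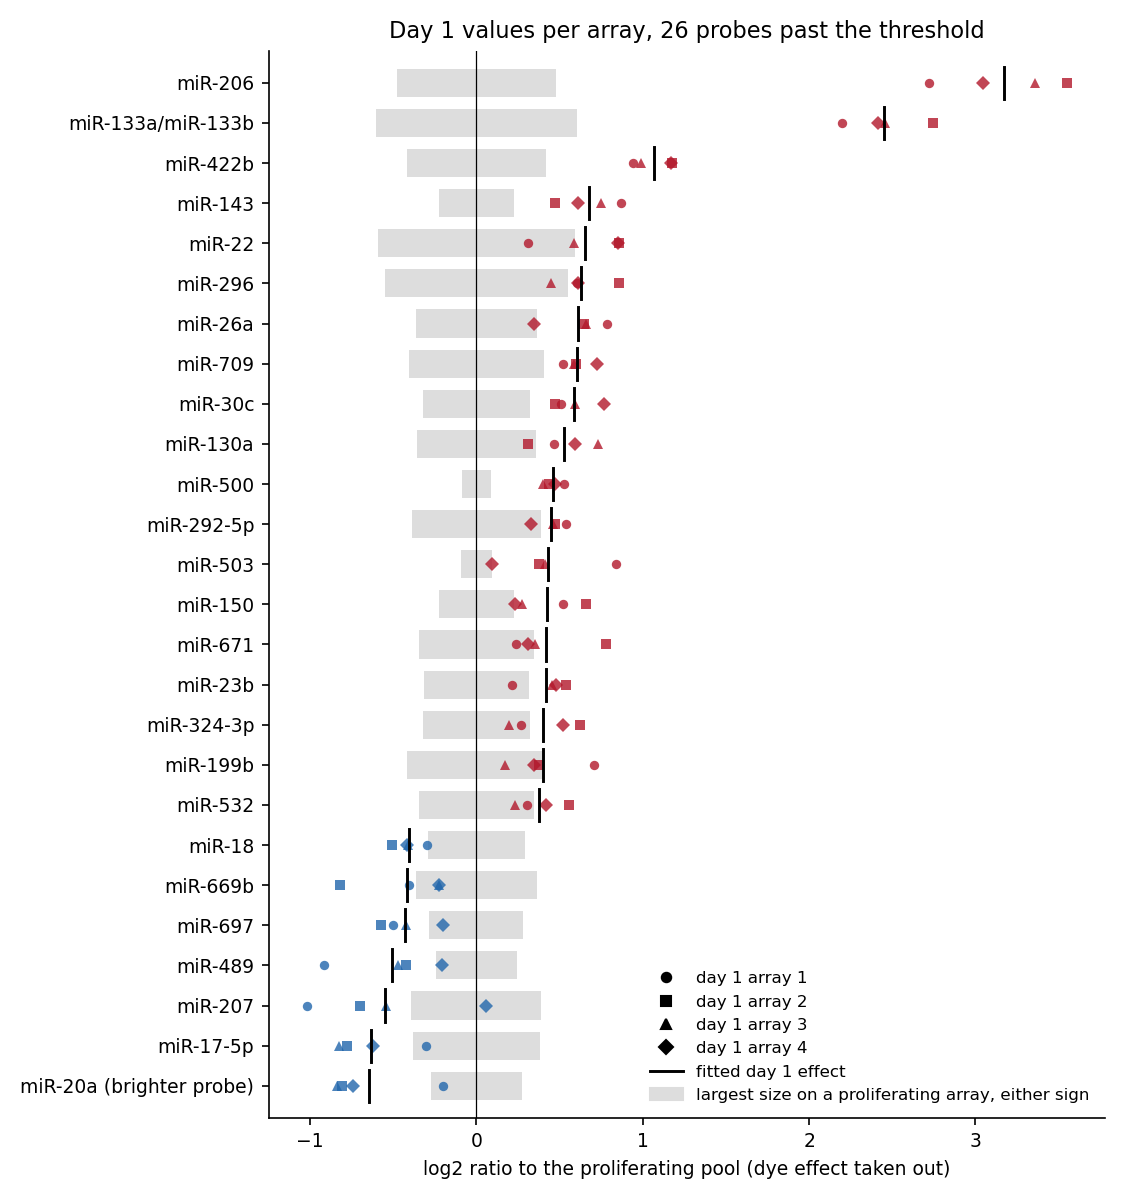
Log2 ratio to the proliferating pool on each of the 4 day 1 arrays (symbols, red for probes that passed higher and blue for those lower) for the 26 probes that passed, with the fitted effect (black line) and the largest size on any proliferating array in either sign (grey bar). All 4 points of the top 3 probes lie right of the grey bar, while 1 of the 4 points of miR-20a and of miR-17-5p lies inside it.

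miR-206 is found almost only in skeletal muscle and promotes myoblast differentiation. Its log2 ratios on day 1 arrays 1 to 4 were 2.72, 3.55, 3.36 and 3.05, while the proliferating arrays gave 0.48, 0.32, 0.25 and 0.09 as red over green. The groups did not overlap, and the lowest day 1 value was more than 2 log2 units above the largest proliferating one. Before normalisation its background-subtracted intensity was 29337, 21964, 10892 and 21063 in the day 1 channel against 3418, 2372, 1406 and 1982 in the pool channel. The day 1 channel was the brighter on all 4 arrays, whichever dye it carried. miR-206 was among the probes by which that channel was chosen, so this is no separate support. The fitted difference was 3.17 (SE 0.16, SD 0.36, n = 4, limma adjusted p = 9.25e-09). It was detected in both channels of all 4 day 1 arrays, so the proliferating pool itself held measurable miR-206.

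miR-133a and miR-133b, measured by 1 probe that cannot tell them apart, regulate myoblast growth and repress serum response factor. The day 1 values were 2.20, 2.74, 2.45 and 2.42, and the proliferating arrays gave 0.60, 0.05, -0.46 and 0.39. Again no value of the groups overlapped. The intensities were 5500, 3595, 1765 and 2984 in the day 1 channel against 1370, 659, 411 and 589 in the pool channel. The fitted difference was 2.45 (SE 0.16, SD 0.22, adjusted p = 1.47e-07).

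miR-1, which promotes differentiation and represses the deacetylase Hdac4, did not pass, at 0.33 (SE 0.18, adjusted p = 0.281). Its 4 values were -0.19, 0.60, 0.21 and 0.69, and the proliferating arrays gave 0.32, 0.60, -0.24 and -0.36, so that the groups overlapped. The day 1 channel was detected on 4 arrays and the pool channel on 1. Among 301 tested probes that carry no mouse name, the one for rat miR-1 stood at 1.55 (SE 0.38, adjusted p = 0.0703), and the one for miR-1 of several insects stood at 0.49 (adjusted p = 0.233). Of 6 muscle-specific probes on the array, miR-486, miR-208 and miR-499 were not detected often enough to be tested. The list thus had 2 of 3 tested probes higher and none lower, with a median of 2.45. Over all 176 probes 14.8% passed, with a median of -0.0020. The choice of channel on array 4 rests on these probes. With array 4 left out, both probes that rose passed again.

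**Figure D2:**
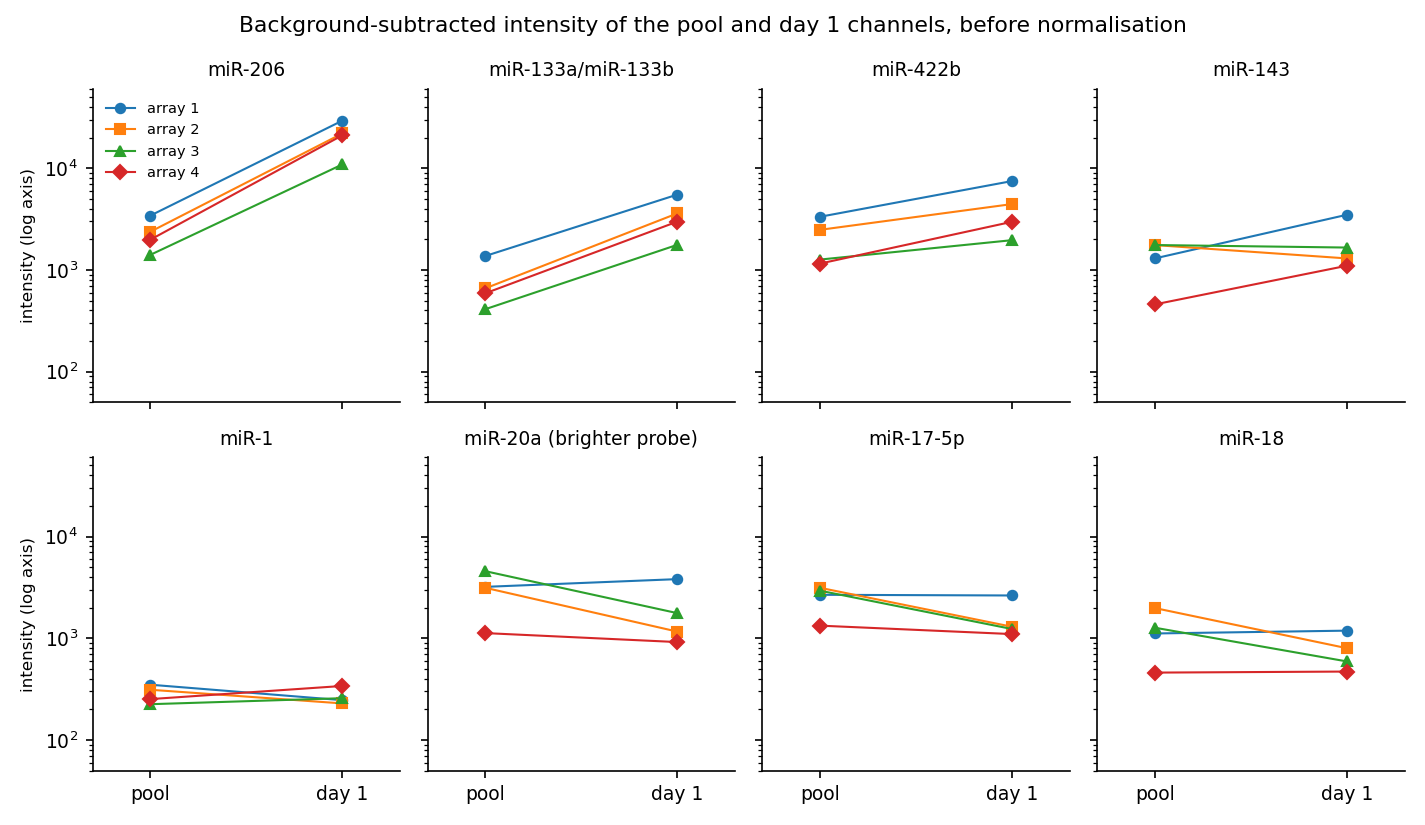
Background-subtracted intensity (log axis) of 8 probes in the pool and day 1 channels of each day 1 array, before normalisation, with 1 line per array. The lines of miR-422b, miR-133a/miR-133b and miR-206 rise on all 4 arrays, and those of miR-1 fall on arrays 1 and 2 and rise on arrays 3 and 4. Those of miR-143 rise on arrays 1 and 4 and fall on arrays 2 and 3. The lines of miR-17-5p, miR-20a and miR-18 fall on arrays 2 and 3. On arrays 1 and 4, which carry the opposite dye, those of miR-18 rise slightly, that of miR-20a rises on array 1, and the others fall less.

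Of 31 further probes tied to muscle differentiation, 24 were tested, and 4 rose and 1 fell. Their median was -0.015, with 12 values above and 12 below 0, and 5 of 24 is 20.8% against 14.8% of all probes. miR-422b, now called miR-378-3p and encoded within the coactivator gene Ppargc1b, gave 0.94, 1.18, 0.99 and 1.17 on the day 1 arrays and 0.42, -0.03, 0.09 and -0.42 on the proliferating ones. The groups did not overlap, and the fitted rise was 1.07 (SE 0.13, SD 0.12, adjusted p = 9.44e-05). The separate probe named miR-378 stood at 0.0070 (adjusted p = 0.988). Probe sequences were not given, so this probe and that of miR-422b may read different mature miRNAs.

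miR-26a, which represses the histone methyltransferase gene Ezh2, gave 0.79, 0.65, 0.66 and 0.35 and rose by 0.61 (SE 0.12, adjusted p = 0.0058). Its lowest day 1 value lay just under the largest proliferating one, 0.36. miR-22, a miRNA of muscle and heart, gave 0.31, 0.86, 0.59 and 0.85 and rose by 0.65 (SE 0.16, adjusted p = 0.0214), and 2 of its 4 values lay within the 0.59 seen on a proliferating array. miR-503, which shares targets among cell cycle regulators with miR-424 and lowers Cdc25a, gave 0.84, 0.37, 0.41 and 0.09 and rose by 0.43 (SE 0.12, adjusted p = 0.0301). Array 1 of miR-503 was the highest and array 4 was no larger than the proliferating size of 0.09. miR-489, known to hold muscle stem cells quiescent in mice, gave -0.92, -0.43, -0.47 and -0.21 and fell by 0.51 (SE 0.12, adjusted p = 0.0193), with array 4 inside the proliferating size of 0.24.

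Other members of that list did not pass. miR-24 stood at 0.29 (SE 0.10, adjusted p = 0.0844) and miR-27b, which represses Pax3 in mouse muscle, at 0.40 (SE 0.15, adjusted p = 0.111). The 4 values of miR-24 were 0.15, 0.47, 0.21 and 0.35. Those of miR-27b were 0.07, 0.77, -0.07 and 0.82, with arrays 2 and 4 high and arrays 1 and 3 near 0. miR-222 and miR-221, repressors of the cell cycle inhibitor p27, stood at -0.19 (SE 0.11) and -0.16 (SE 0.15), both without passing. miR-29a, miR-29b and miR-29c, which target collagens, stood at -0.17, -0.13 and -0.26, and miR-31, which restrains Myf5 translation, at 0.05.

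Of 14 probes of the miR-17-92 cluster and its paralogues, 8 were tested, and 3 fell and none rose. All 8 values were negative, with a median of -0.33, and 3 of 8 is 37.5% against 14.8% of all probes. miR-20a, measured by 2 probes, gave -0.20, -0.81, -0.84 and -0.74 with its brighter probe and fell by 0.65 (SE 0.13, SD 0.30, adjusted p = 0.0058). Array 1 lay inside the proliferating size of 0.27, and the other 3 arrays lay beyond it. The dimmer probe gave -0.55, -0.66, -0.21 and 0.11 and stood at -0.33 (SE 0.13, adjusted p = 0.121), so the probes for 1 miRNA had the same sign, and 1 of them did not pass.

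miR-17-5p gave -0.31, -0.78, -0.83 and -0.63 and fell by 0.63 (SE 0.13, SD 0.24, adjusted p = 0.0058). miR-18 gave -0.30, -0.51, -0.41 and -0.42 and fell by 0.41 (SE 0.11, SD 0.09, adjusted p = 0.0254). Before normalisation, with the dye effect still in, the day 1 channel of miR-18 was at 1189, 798, 592 and 471. The pool channel was at 1115, 1981, 1269 and 460. At that step the day 1 channel was lower on arrays 2 and 3 and slightly higher on arrays 1 and 4. On miR-18 the groups did not overlap, since the largest proliferating size was 0.29, while array 1 of miR-17-5p lay inside the proliferating size of 0.38. The other arm of the same hairpin, miR-17-3p, stood at -0.02 (SE 0.10, adjusted p = 0.895). The paralogues miR-106a, miR-20b and miR-106b stood at -0.34, -0.17 and -0.08, none passing. Among probes of mature miRNAs with the seed AAAGUGC, those for miR-17-5p, miR-20a, miR-20b, miR-106a and miR-106b, 2 of 6 passed, against 14.8% of all probes, and the range was -0.65 to -0.08.

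Other seed groups with a probe that passed were mixed. miR-26a rose while miR-26b, with the same seed, stood at 0.18 (adjusted p = 0.506). miR-30c, of a family that restrains connective tissue growth factor, gave 0.51, 0.47, 0.60 and 0.77 and rose by 0.59 (SE 0.12, adjusted p = 0.0060), all beyond the proliferating size of 0.32. The other 4 tested members of the miR-30 family, miR-30d, miR-30a-5p, miR-30b and miR-30e, stood at 0.24, 0.25, 0.21 and 0.19 without passing, and the family's median was 0.24. miR-130a gave 0.47, 0.31, 0.73 and 0.60 and rose by 0.53 (SE 0.12, adjusted p = 0.0135; 0.32 and adjusted p = 0.189 with print-tip loess), while miR-721, miR-130b and miR-301 of the same seed stood at 0.16, -0.05 and -0.13. miR-425, which shares the seed of miR-489, stood at -0.0008. Whether a short probe also binds close relatives of its miRNA was not tested.

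Probes from 1 genomic cluster were set side by side where RefSeq genes followed each other within 10000 bases. Mir206 and Mir133b are neighbours, as are the genes of miR-1 and miR-133a, of which miR-1 did not pass. From the Mir23b, Mir27b and Mir24-1 cluster miR-23b rose by 0.42 (SE 0.11, adjusted p = 0.0238), with 0.21, 0.54, 0.45 and 0.48 on the day 1 arrays. Over this and the related cluster 1 of 5 tested probes passed, close to the 14.8% of all probes, with a median of 0.29, and miR-23a and miR-27a stood at 0.12 and -0.16. From the cluster in an intron of Clcn5, miR-500 gave 0.53, 0.43, 0.40 and 0.47 and rose by 0.46 (SE 0.09, SD 0.05, adjusted p = 0.0058). Its proliferating values reached only 0.09 in size, and the groups did not overlap. miR-532 of that cluster rose by 0.38 (adjusted p = 0.0439), and miR-188 stood at 0.12 (adjusted p = 0.545).

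In the cluster of miR-503, 1 of 5 tested probes passed, close to the 14.8% of all probes, and miR-424, miR-351 and miR-542-3p stood at 0.24, 0.18 and -0.23. miR-296 rose by 0.63 (SE 0.17, adjusted p = 0.0254), with 0.61, 0.86, 0.45 and 0.61 against a proliferating size of 0.55, and its neighbour miR-298 stood at -0.03. miR-324-3p rose by 0.40 (adjusted p = 0.0439), while the other arm, miR-324-5p, stood at -0.36 (SE 0.22, adjusted p = 0.354). miR-669b, from the large cluster within Sfmbt2, fell by 0.42 (SE 0.13, adjusted p = 0.0439; -0.69 and adjusted p = 0.0733 from mean intensities), and miR-669a, miR-467a and miR-467b of that cluster stood at -0.13, -0.04 and -0.16. Each channel of miR-669b was detected on only 2 day 1 arrays. In the Dlk1-Dio3 cluster none of 14 tested probes passed, against 14.8% of all probes, with a median of -0.04 and 2 at an unadjusted p under 0.05, miR-382 and miR-494 (-0.38, SE 0.12, adjusted p = 0.0537).

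**Figure D3:**
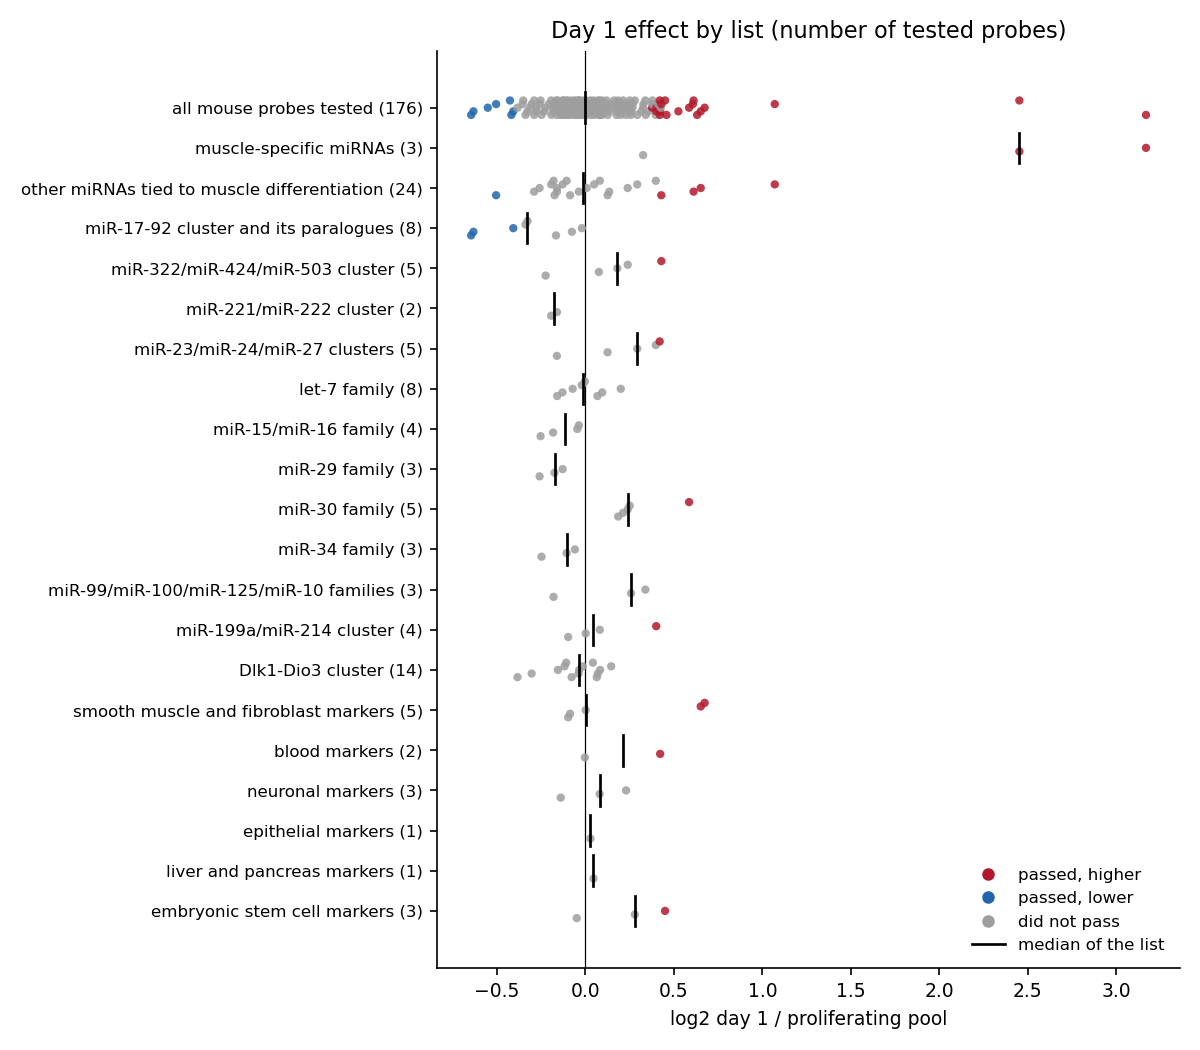
Fitted log2 ratio of day 1 to the proliferating pool for the tested probes of each list (number in brackets), red where a probe passed higher, blue where it passed lower and grey where it did not pass, with the median of the list as a black line. The miR-17-92 probes all lie left of 0 and the miR-30 probes all right of it, while the values of the let-7 family lie on both sides.

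miR-143, known from smooth muscle and fibroblasts, gave 0.87, 0.47, 0.75 and 0.61 against a proliferating size of 0.22 and rose by 0.67 (SE 0.11, SD 0.17, adjusted p = 0.0018). The groups did not overlap. The dye effect of miR-143, 0.70, was larger than that rise. Before normalisation, with the dye effect still in, the background-subtracted intensity of the day 1 channel was 3488.5, 1297, 1659 and 1101. The pool channel was at 1299, 1755, 1757 and 459, and so was the brighter on arrays 2 and 3. The dye effects of miR-130a, miR-22, miR-292-5p and miR-18, at 0.78, -0.77, -0.83 and 0.61, were also larger in size than their day 1 effects. Of the 5 tested probes of the smooth muscle and fibroblast list, miR-143 and miR-22 rose, and miR-21, miR-199a and miR-199a* stood at -0.09, -0.10 and 0.0013. miR-145, the cluster partner of miR-143, was not detected often enough to be tested. The summed intensity of the 5 probes before normalisation was 6402.2 to 22959.2 in the day 1 channels and 6564.5 to 20545.5 in the pool channels, and the part of such cells in the result was not tested. miR-199b, outside that list, rose by 0.40 (SE 0.12, adjusted p = 0.0440), and its pool channel was detected on 1 array. With median centring it stood at 0.20 (adjusted p = 0.574).

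miR-150, a lymphocyte miRNA that represses Myb, gave 0.52, 0.66, 0.27 and 0.23 and rose by 0.42 (SE 0.11, adjusted p = 0.0254). It was near background, detected in the day 1 channel on 3 arrays and in the pool channel on 2. Of the 6 blood probes 2 were tested. miR-144 was detected on no day 1 array in either channel, and miR-142-3p, miR-142-5p, miR-223 and miR-451 were not tested. The summed intensity of the 2 tested probes was 293.2 to 646.2 in the day 1 channels and 260.2 to 679.2 in the pool channels. miR-292-5p, of the cluster named for embryonic stem cells, gave 0.54, 0.47, 0.46 and 0.33 and rose by 0.45 (SE 0.12, adjusted p = 0.0254), and array 4 lay inside the proliferating size of 0.39. Of the 13 stem cell probes 3 were tested, miR-290 stood at 0.28 (adjusted p = 0.220) and miR-291a-5p/miR-291b-5p at -0.05. The other 10, among them miR-291a-3p, miR-294, miR-295 and 4 probes of the miR-302 family, were not detected often enough to be tested. The summed intensity of the 3 tested probes was 13662.8 to 25838.0 in the day 1 channels and 13030.5 to 17648.0 in the pool channels, and the part of other cell types in these results was not tested. No neuronal (3 tested), epithelial (1) or liver and pancreas (1) marker passed, and neither endothelial probe was tested.

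None of the following families had a probe that passed. The let-7 family stood between -0.16 and 0.20 over 8 probes, with a median of -0.01. The miR-15/miR-16 family had 4 negative values with a median of -0.11, and miR-15b, which represses cyclins, stood at -0.25 (SE 0.10, adjusted p = 0.139) with -0.24, -0.32, -0.14 and -0.32 on the 4 arrays. The miR-29 and miR-34 families had medians of -0.17 and -0.11 over 3 probes each, and the pair of miR-221 and miR-222 a median of -0.18. In the families of miR-10, miR-99, miR-100 and miR-125 the probes miR-99b and miR-125a stood at 0.34 and 0.26 and miR-125b at -0.18, none passing.

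The remaining probes that passed carry miRNAs on no list. miR-709 gave 0.52, 0.60, 0.58 and 0.73 and rose by 0.61 (SE 0.12, SD 0.09, adjusted p = 0.0058), all beyond the proliferating size of 0.41. With print-tip loess it stood at 0.09 (adjusted p = 0.597), and with median centring at 0.94. Its background-subtracted intensity was 55234, 60845, 47812 and 56391 in the day 1 channels and 43185, 24218, 20368 and 43562 in the pool channels. The highest spot of those day 1 channels was at 59556, 64458, 48532 and 56538, so this probe was read near the top of the scale. miR-671 rose by 0.42 (SE 0.13, adjusted p = 0.0440). miR-697 gave -0.50, -0.58, -0.42 and -0.20 and fell by 0.43 (SE 0.11, adjusted p = 0.0222). miR-207 gave -1.02, -0.70, -0.55 and 0.06 and fell by 0.55 (SE 0.17, adjusted p = 0.0439), with array 4 on the other side of 0. Of the 26 probes, 23 were detected in the day 1 channel and 19 in the pool channel of all 4 arrays, and none was undetected in every pool channel.

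Most of the smaller differences did not pass without single arrays. On leaving out each of the 8 arrays in turn, 10 of the 26 calls were kept, those of miR-17-5p, the brighter miR-20a probe, miR-709, miR-500, miR-30c, miR-26a, miR-143, miR-422b, miR-133a/miR-133b and miR-206, and 16 were lost on leaving out at least 1. miR-130a was lost without day 1 array 3 or 4 (adjusted p up to 0.0741). miR-22 and miR-23b were lost without day 1 array 2, 3 or 4 (up to 0.138 for both). miR-150, miR-489, miR-503 and miR-697 were lost without day 1 array 1, 2 or 3 (up to 0.189, 0.105, 0.173 and 0.138). Any 1 of the 4 day 1 arrays sufficed to lose miR-18, miR-292-5p and miR-296 (up to 0.149, 0.135 and 0.149). The calls of miR-199b, miR-669b and miR-671 were lost without any day 1 array or without proliferating array 1, 2 or 4 (up to 0.247, 0.347 and 0.354). miR-207 was lost without day 1 array 1, 2 or 3 or proliferating array 1 or 4 (up to 0.260). miR-324-3p was lost without any day 1 array or proliferating array 2 or 4 (up to 0.272), and miR-532 without those or proliferating array 3 (up to 0.251). The count of calls was 13, 11, 12 and 16 without day 1 array 1, 2, 3 or 4. With the proliferating arrays themselves as the control, turned in each of the 6 ways that give 2 of each dye, 3 to 19 probes passed, and those for miR-422b, miR-133a/miR-133b and miR-206 passed in all 6.

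The later stages show how far the day 1 values were from those of cells kept longer in 2% horse serum. These contrasts subtract day 1 from day 2 or day 4 in a fit of 16 arrays, and they share the day 1 arrays and the pool with the comparison above. At day 2 none of the 176 probes (0%) differed from day 1 at an adjusted p under 0.05 in limma, with 14 at an unadjusted p under 0.05. miR-133a/miR-133b stood 1.12 higher at day 2 (SE 0.25, adjusted p = 0.0542), and passed with an adjusted p of 0.0112 without day 2 array 3 and of 0.0280 without day 4 array 3. Without any other single day 1, day 2 or day 4 array it did not pass. The adjusted p was up to 0.377, with a difference of 0.92, without day 2 array 1. miR-1 stood 1.52 higher (adjusted p = 0.249).

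At day 4, 15 of 176 probes (8.52%) differed from day 1, 6 higher and 9 lower, with 34 at an unadjusted p under 0.05. miR-206 rose from 3.17 at day 1 to 4.16 at day 4 (SE of each 0.19), and the difference was 0.99 (SE 0.27, adjusted p = 0.0291). miR-133a/miR-133b rose from 2.45 to 3.86, by 1.41 (SE 0.25, adjusted p = 0.0043). miR-1 rose from 0.33 to 2.07, by 1.75 (SE 0.47, adjusted p = 0.0247). miR-422b, miR-143 and miR-26a rose by 0.93, 0.60 and 0.67.

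The cluster probes miR-17-5p, miR-18 and the brighter miR-20a probe fell further between day 1 and day 4, by 0.84, 0.87 and 0.76. Some probes that had not passed at day 1 were lower at day 4 than at day 1. The day 4 value minus the day 1 value was -0.57 for miR-15b, -0.69 for miR-182, -1.13 for miR-31, -0.68 for miR-183 and -1.01 for miR-222. miR-292-5p, which was higher at day 1, was at -0.07 at day 4 and fell by 0.52 (SE 0.15, adjusted p = 0.0291). Leaving out each day 1, day 2 and day 4 array in turn kept 5 of the 15, those of miR-133a/miR-133b, miR-17-5p, miR-18, miR-222 and miR-31. The other 10 were lost without at least 1 array (adjusted p up to 0.211), and every day 1 array and every day 4 array cost at least 1 of them.

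**Figure D4:**
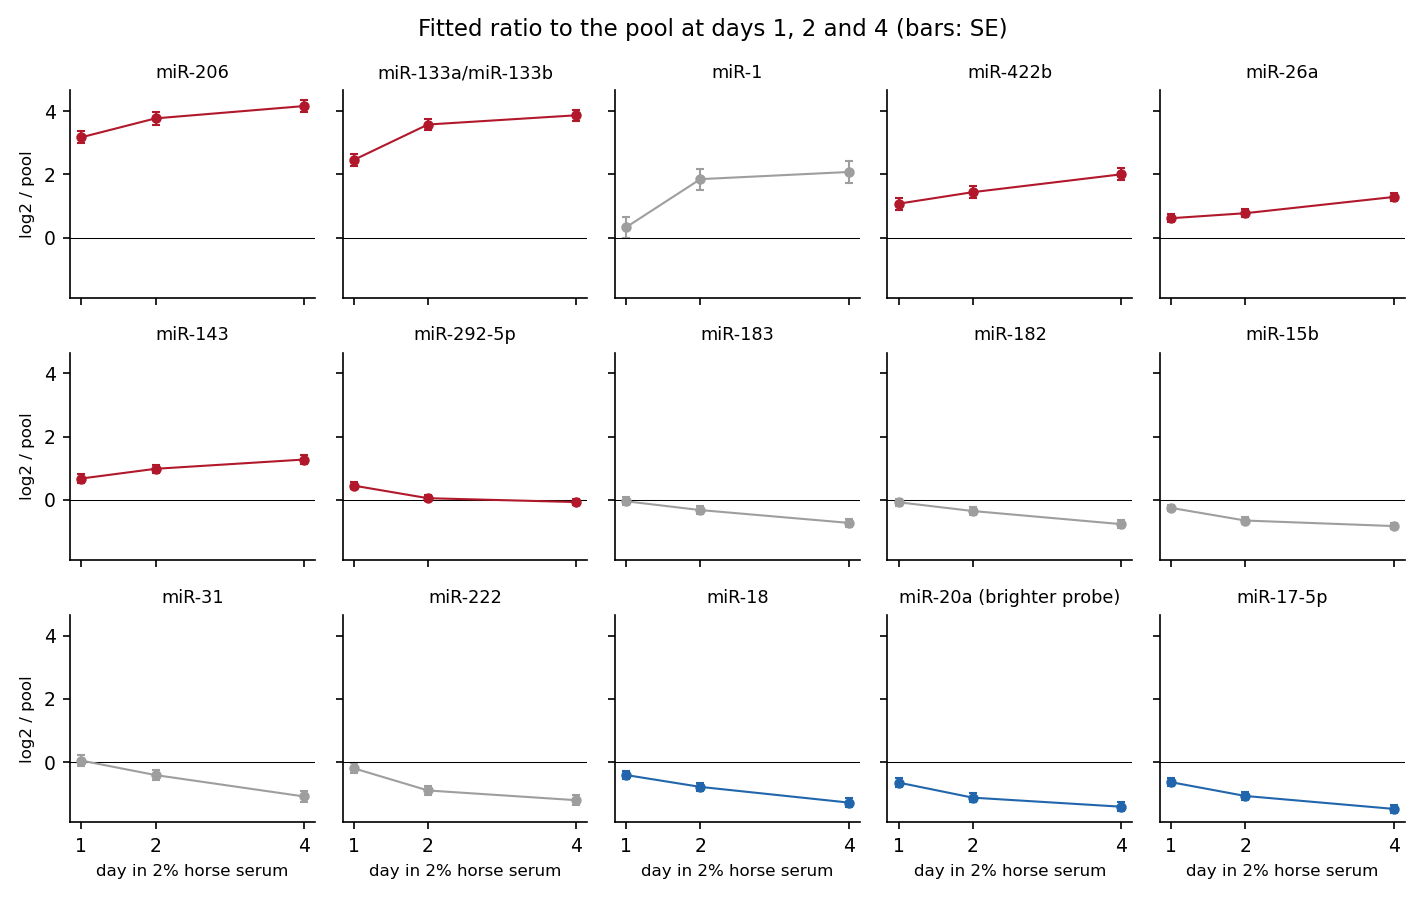
Fitted log2 ratio to the proliferating pool at days 1, 2 and 4 in 2% horse serum (points, with bars of 1 SE from the fit of 16 arrays) for the 15 probes that differed between day 4 and day 1. Red and blue mark probes that passed higher or lower at day 1 and grey those that did not. miR-1 goes from 0.33 to 2.07 and miR-222 from -0.19 to -1.20, neither having passed at day 1.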

How the data were processed

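The authors deposited, per spot and channel, scanner intensity values, median and mean, with a morphological background, per the file headers; no normalisation had been applied. The deposited log2 ratio of each spot was only compared with the ratio of background-subtracted medians. The series' log2 value table is the authors' processed value per stage, with its normalisation and direction not given in the sources used here. It served only to check the channels. Scanner, slide and scan date are not given there either, so batches could not be examined. The intensities were processed in R 4.3.3 with limma 3.58.1: normexp background correction (offset 50) on medians, loess over the whole array in which control spots had weight 0, and the mean over a probe's spots. A probe was detected where the median less background exceeded percentile 95 of 114 empty and negative-control spots in at least 1 spot. It was tested where this held in either channel on at least 3 of 4 day 1 or proliferating arrays. lmFit and eBayes fitted 8 arrays with a dye term and a day 1 effect (two-sided, 6 residual and 6.57 prior degrees of freedom). Proliferating arrays were coded 0, since both channels hold proliferating RNA, so their deviations enter the spread. Whether the pool holds the same 4 cultures is not stated. Adjustment was Benjamini-Hochberg over 176 probes.

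Up to the 15 largest rises and 15 largest falls were named, with all tested muscle-specific probes, up to 4 probes with the smallest p of each list, and probes sharing a seed with one that passed. miR-532, miR-324-3p, miR-378, miR-31, miR-182, miR-183, cluster neighbours and other list members were named after their values were seen. The probes and lists were chosen with earlier results of these data known. Probe names are those of the array design. The number of arrays limits the precision. Alternatives covered background, normalisation, filter, arrays in the fit, control, dye term, day 1 array 4 turned, and arrays left out. Other ways to choose the channels changed none. The way without the muscle-specific miRNAs was held to the numbers of arrays per dye in the labels. Without that limit it would turn day 1 array 4, so its agreement on that array was set by the limit. The fit was tested on simulated data with the true channels put in, so that test does not bear on the choice of channels.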

Additional observations from a re-analysis of the deposited data

Results flagged for a closer look

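Of the probes named in the text, 15 differed between day 4 and day 1 in the test of that difference itself (limma, adjusted p under 0.05). The day 4 value minus the day 1 value was 0.99 log2 for miR-206, 1.41 for miR-133a/miR-133b, 1.75 for miR-1, 0.93 for miR-422b, 0.60 for miR-143 and 0.67 for miR-26a. It was -0.76 for the brighter miR-20a probe, -0.84 for miR-17-5p, -0.87 for miR-18, -0.52 for miR-292-5p, -0.57 for miR-15b, -1.01 for miR-222, -0.69 for miR-182, -0.68 for miR-183 and -1.13 for miR-31. These values share the day 1 arrays.

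Single arrays stood far from the other 3 of their group for 7 of 170 groups checked, and chance flags about 1 in 20 such groups. Day 1 array 1 gave -0.20 for the brighter miR-20a probe, with the others at -0.84 to -0.74. Day 1 array 2 gave -0.73 for miR-494 (others -0.29 to -0.23) and 0.13 for miR-130b (others -0.14 to -0.10). Day 1 array 3 gave -0.20 for let-7d (others 0.18 to 0.21). Among proliferating arrays, whose red over green values have no direction, array 1 gave 0.40 for miR-182 and 0.28 for miR-34a, and array 4 gave 0.39 for miR-144.

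Among 301 tested probes without a mouse name, 5 passed at day 1, 3 higher and 2 lower. A probe for primate miR-133a rose by 2.50 log2 (SE 0.16, adjusted p = 6.00e-07), close in size to the mouse probe. A probe for miR-7 of insects, cattle and fish fell by 1.12 (SE 0.13, adjusted p = 2.21e-04). The other 3, named for human miR-557, human miR-617 and a viral miRNA, stood at 0.78, -0.56 and 0.84.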

How the results depend on the processing

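The 26 calls at day 1 became 17 with median centring, 13 with no filter on dim probes (343 tested) and 4 with no dye term. They became 0, with 20 at an unadjusted p under 0.05 in limma, with day 1 array 4 turned the other way, an alternative chosen after seeing the data. With the proliferating arrays as control they were 3, 4, 15, 9 and 5 under 5 of the 6 ways to turn those arrays and 19 under the other. Leaving out single arrays gave 11 to 26. miR-422b, miR-133a/miR-133b and miR-206 passed under every alternative run but that one. The 4 other ways to choose the channel gave the same channels and so the same fit. The way without the muscle-specific miRNAs was held to 2 arrays of each dye, as in the labels. Without that limit array 4 would turn, so its result there was set by the limit. The count was 18 to 26 under the other alternatives, with the same channels on all 4 day 1 arrays under 5 other processings. No call changed sign under any alternative. Values that did not pass in the reported or the alternative fit could change sign. Day 2 minus day 1 had 0 calls as reported, 1 without the proliferating arrays and 2 with median centring (miR-133a/miR-133b and miR-1), and 0 to 1 on leaving out single arrays. Day 4 minus day 1 went from 15 to 9 with median centring, and to 7 to 15 on leaving out single arrays. The causes were not tested. No paired analysis was possible because the arrays carry no replicate numbers in the labels. Probes near background, such as miR-150 and miR-669b, and miR-1, miR-532 and miR-199b in the pool channel, have uncertain ratios.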
